A study of Rattus norvegicus with 12 samples.

Results

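The genes described here encode the mitochondrial respiratory chain and the ATP synthase of the rat. They were chosen by name: a probe set was taken where its 1 gene symbol began with Nduf, Uqcr, Cox4 to Cox8 or Atp5, or was Sdha, Sdhb, Sdhc or Sdhd. These symbols covered 96 probe sets and 86 of the 14217 genes with a symbol on the arrays, and each gene was represented by its brightest probe set. By role they comprised 34 subunit genes of complex I, 6 complex I assembly factors (Ndufaf genes), 4 genes of complex II, 7 of complex III, 19 of complex IV and 16 of the ATP synthase. Among the complex IV genes, Cox6c-ps1 is annotated as a transcribed pseudogene. A further 7 probe sets with several symbols were left out, among them those of Cox7a2, Uqcrb, Ndufs5 and Ndufa10. Under their usual symbols, 0 of the 13 subunit genes of the mitochondrial genome were on the arrays, so all values concern nuclear genes.

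The respiratory chain passes electrons from NADH (complex I) and succinate (complex II) through complex III to oxygen at complex IV, and the proton gradient built on the way drives the ATP synthase. Nuclear genes encode most of its subunits and all of complex II. Axons depend on ATP made along their length, although the messenger RNA of neuronal subunits is made in cell bodies, and acrylamide is known as a toxicant of long axons.

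Messenger RNA was measured on Affymetrix arrays in the sciatic nerve, spinal cord and cerebellum of young male Wistar rats. In each tissue, rats given acrylamide daily at 30 mg/kg by gavage were compared with rats given saline, with 2 arrays per group and 12 arrays in all. Each array carried RNA pooled from 2 rats, so the errors describe the spread between pools, and it is unclear from the labels if 1 set of rats gave all 3 tissues. The start of dosing is given as 25 days of age in 1 place and 3 weeks in another, the control as saline or solvent, and the 21 days as either the length of dosing or the time from treatment to collection.

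Array medians ranged over 161.8 to 199.0 signal units, and the 4 lowest were those of the nerve. Replicates differed in markers of other tissues. The summed signal of 17 skeletal muscle markers was 67521 on spinal cord saline replicate 1, against 6960 to 8180 on the other 3 cord arrays. It was 7381 and 34682 on the acrylamide nerve arrays, 12149 and 4400 on the saline ones and 4994 to 7018 on the cerebellar arrays. Of these sums Myh1 alone made up 3408 to 5231 on the other 3 cord arrays, 2420 to 4102 in the nerve and 3444 to 5471 in the cerebellum. The 8 cerebellar neuron markers summed to 14213 and 1969 on the acrylamide nerve arrays and to 11218 and 2063 on the saline ones, so replicate 1 was the higher in both groups, against 74446 to 82103 in the cerebellum. Of 3 Schwann cell markers none lay at or under a signal of 110 on any nerve or cord array, and all 3 did on each cerebellar array. Their sums were 52866 to 68305 in the nerve, 15886 and 19275 in the saline cord and 12647 and 9362 in the acrylamide cord. The 3 motor neuron markers summed to 2179 to 2337 in the cord, against 45 to 92 in the nerve and 35 to 103 in the cerebellum. The source of the differing marker sums between replicates was not tested.

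**Figure D1:**
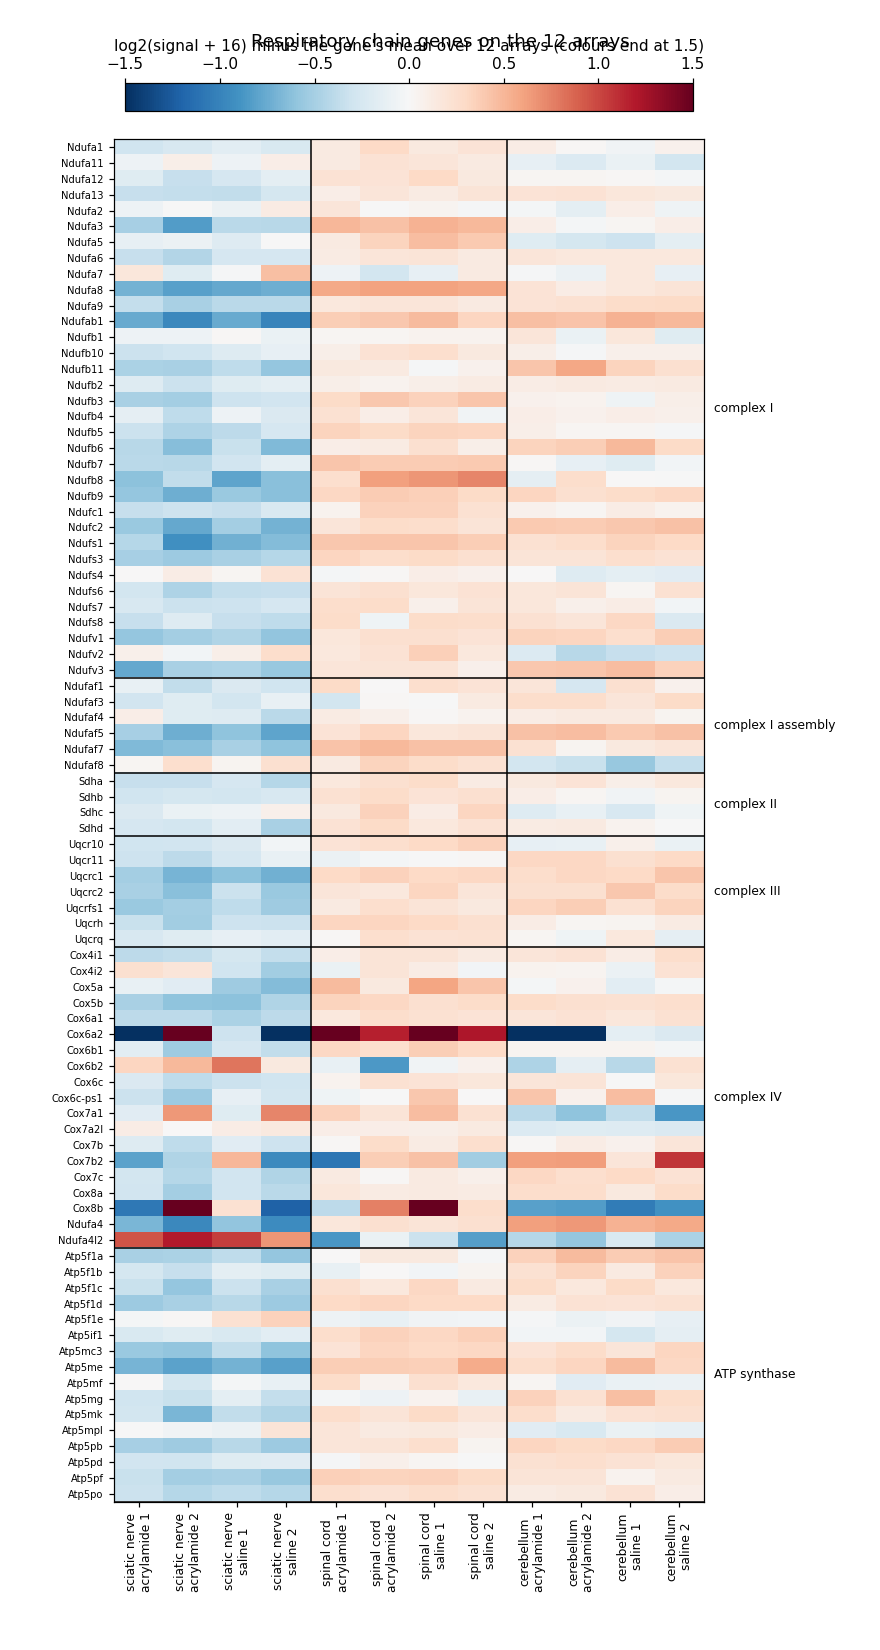
Each row is 1 of the 86 respiratory chain genes, grouped by complex, and each column 1 of the 12 arrays. Colour gives log2(signal + 16) minus the gene's mean over the 12 arrays. The 4 sciatic nerve columns are mostly blue (below the mean) and the spinal cord and cerebellum columns mostly red, with Ndufa4l2 the other way round. Cox6a2 and Cox8b, which are dim, exceed the colour range.

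Most respiratory chain genes had a lower signal in the sciatic nerve than in the spinal cord of saline rats. Of 81 genes bright enough to be tested, 62 were lower in the nerve and 2 were higher at a limma Benjamini-Hochberg adjusted p under 0.05. Over all probe sets tested, 28.8% were lower and 29.1% higher. The median log2 difference (nerve minus cord) was -0.53 for the chain genes and 0.04 for all probe sets. Differences of at least 2-fold were fewer: 7 chain genes were lower and 1 higher by that much, against 15.5% and 10.6% of all probe sets. Both nerve arrays lay below both cord arrays for 71 of the 81, as they did for 38.6% of probe sets. In bulk tissue, fewer cells of a type and less RNA per cell cannot be told apart.

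The direction was shared by all the complexes. In complex I, 27 of 34 tested genes were lower in the nerve and 0 higher, with a median log2 difference of -0.55. All 7 genes of complex III and 3 of 4 of complex II were lower, with medians of -0.58 and -0.50. The ATP synthase had 11 of 16 lower and 1 higher (median -0.59), complex IV had 11 of 14 lower and 1 higher (median -0.49), and 3 of the 6 assembly factors were lower (median -0.42).

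Ndufa8, an accessory subunit of complex I, had signals of 2370.3 and 2419.9 on the saline nerve arrays, against 6160.4 and 6074 on the saline cord arrays. The nerve arrays were both far below the cord arrays, and the log2 difference was -1.35 ± 0.06 (SE, limma adjusted p = 1.93e-06). Ndufs1, the largest iron-sulfur subunit of the complex I core, had 1331 and 1403 in the nerve and 2947 and 2842 in the cord (-1.07 ± 0.13, adjusted p = 0.000142). Ndufab1, the mitochondrial acyl carrier protein that is also a complex I subunit, differed by -1.28 ± 0.10 (adjusted p = 1.27e-05), and Ndufb8, an accessory subunit, by -1.40 ± 0.16 (0.000104). The catalytic core subunit Ndufv1, which binds NADH, differed by -0.74 ± 0.08. Among the assembly factors, Ndufaf7, a methyltransferase acting on a core subunit, had 349 and 320 in the nerve and 677 and 676 in the cord (-0.98 ± 0.10).

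Uqcrc1, a core protein of complex III, had 2791 and 2598.5 in the saline nerve, against 5262 and 5341 in the saline cord (-0.97 ± 0.08, adjusted p = 1.55e-05). The Rieske iron-sulfur protein gene Uqcrfs1 differed by -0.63 ± 0.08. In complex II the flavoprotein gene Sdha differed by -0.54 ± 0.08 and the iron-sulfur gene Sdhb by -0.49 ± 0.06.

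In the ATP synthase, the membrane subunit gene Atp5me had 1268 and 1181 in the saline nerve, against 2687 and 3081 in the saline cord (-1.22 ± 0.09, adjusted p = 1.01e-05). In the catalytic head, Atp5f1a (alpha subunit) differed by -0.55 ± 0.09, and Atp5f1b (beta subunit) by -0.16 ± 0.08, which did not pass the threshold (adjusted p = 0.11). The inhibitor gene Atp5if1, whose product blocks ATP hydrolysis by the enzyme, had 2401 and 2522.5 in the nerve and 3496 and 3604 in the cord (-0.53 ± 0.07, adjusted p = 0.00024).

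**Figure D2:**
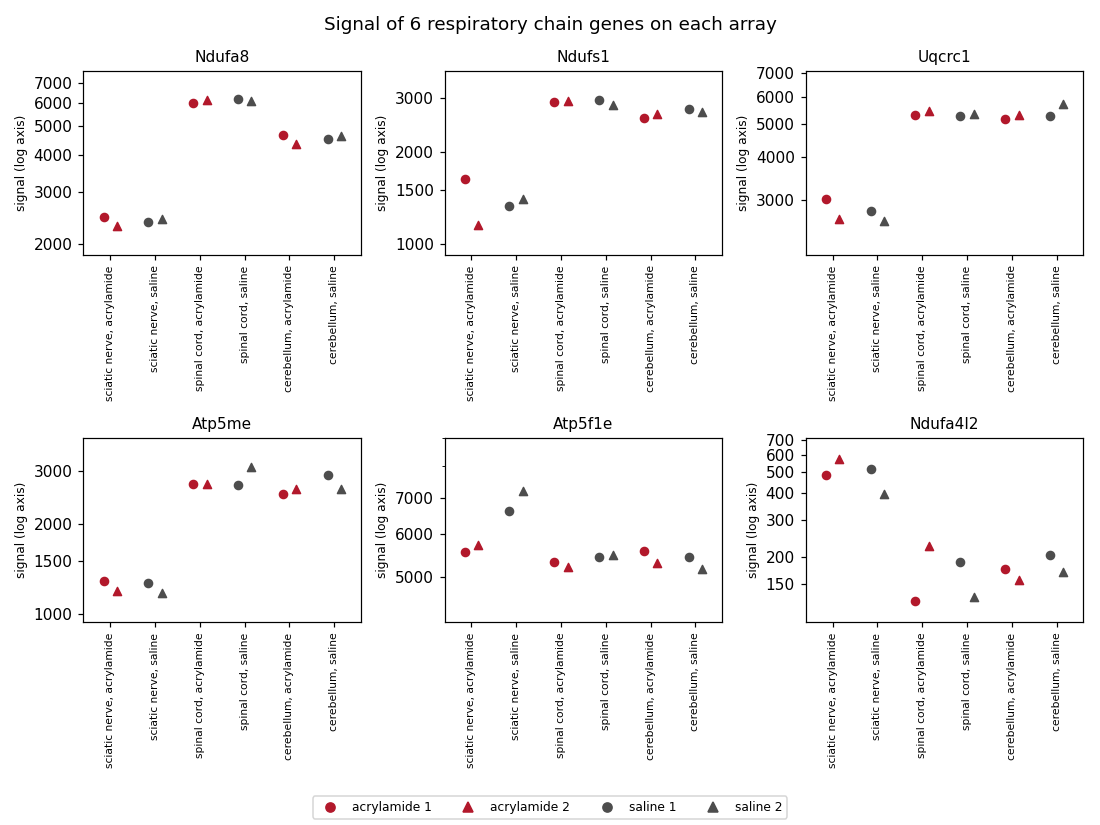
Signal (log axis) of 6 respiratory chain genes in each tissue, acrylamide in red and saline in grey, with circles for replicate 1 and triangles for replicate 2. Ndufa8, Ndufs1, Uqcrc1 and Atp5me lie lower on all 4 nerve arrays than on all other arrays, Ndufa4l2 lies higher, and Atp5f1e is highest on the 2 saline nerve arrays.

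Against the cerebellum most chain genes were lower in the nerve as well. Of 81 tested genes, 59 were lower in the saline nerve and 7 higher, against 39% and 30.6% of all probe sets, and the median was -0.42 for chain genes and -0.14 for all probe sets. This comparison uses the same nerve arrays as the one with the cord. The lowest were Ndufab1 (-1.38 ± 0.10), Ndufa4, a subunit now assigned to complex IV (-1.31 ± 0.12), Atp5me (-1.16 ± 0.09) and the assembly factor gene Ndufaf5 (-1.11 ± 0.11). At least 2-fold differences were seen in 6 genes below (20.6% of all probe sets) and 1 above (17.7%).

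By complex, the nerve was lower than the cerebellum in 25 and higher in 2 of 34 complex I genes, lower in 3 of 4 complex II genes, and lower in 5 of 7 complex III genes. In complex IV, 10 of 14 were lower and 3 higher, and in the ATP synthase 12 of 16 were lower and 1 higher. The 7 genes higher in the nerve were Ndufa4l2, Cox7a1, the assembly factor gene Ndufaf8, the iron-sulfur subunit gene Ndufv2, Atp5f1e, Cox7a2l, whose product helps to join complexes III and IV, and the accessory subunit gene Ndufs4. Their log2 differences lay between 0.28 (Ndufs4) and 1.20 (Ndufa4l2).

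**Figure D3:**
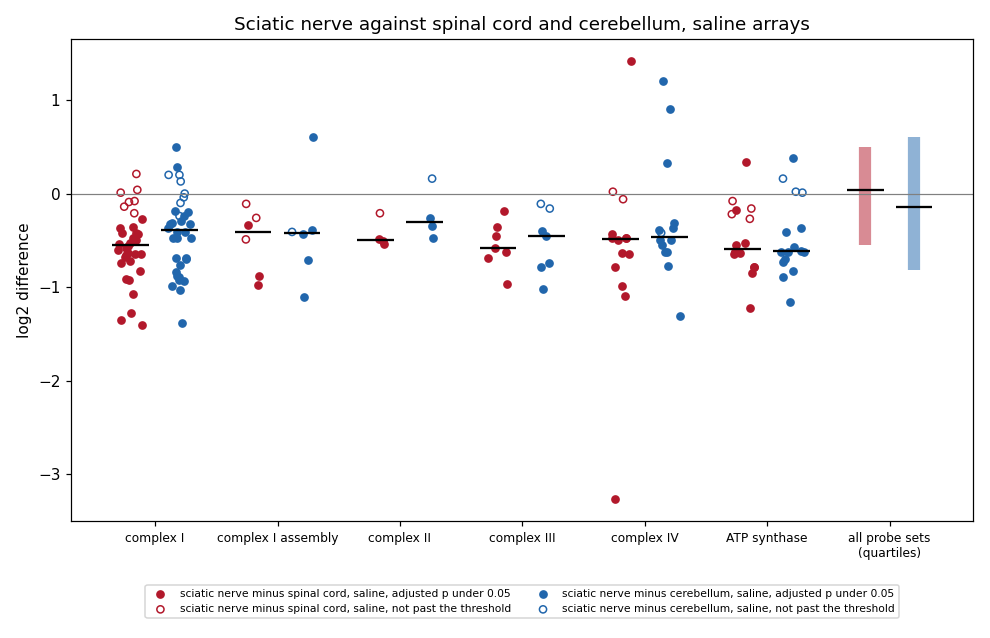
Log2 differences of saline nerve minus saline cord (red) and saline nerve minus saline cerebellum (blue) for each tested chain gene by complex. Filled points passed an adjusted p of 0.05, black lines are medians, and the bars on the right span the quartiles of all probe sets. All complexes have medians below 0 in both comparisons, and the lowest point is Cox6a2 at -3.27.

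The counts depended on how the arrays were scaled. As deposited, the median of all probe sets was 0.04 against the cord and -0.14 against the cerebellum. Centring each array on its median moved the median of all probe sets by 0.18 (nerve minus cord) and 0.21 (nerve minus cerebellum). With it, 52 chain genes were lower and 2 higher in the nerve than in the cord, and 40 were lower and 11 higher than in the cerebellum, in place of 62 and 2, and 59 and 7. Over all probe sets, 4594 were then lower and 7618 higher than in the cord, in place of 5822 and 5893, and 6320 lower and 7566 higher than in the cerebellum, in place of 8089 and 6346. Relative to the median of all probe sets, which centring moves together with the chain genes, the chain median was -0.57 against the cord and -0.28 against the cerebellum as deposited. With quantile normalization, which can change it, it was -0.73 and -0.53.

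The acrylamide rats gave a repeat of the tissue comparison on other arrays. Both comparisons came from 1 fit with the same error variance for each gene, so their calls were not independent. Of the 62 genes lower in the nerve than in the cord of saline rats, 59 were lower again, and 57 of 59 were lower again against the cerebellum. The repeat rate was also high over all probe sets lower in the nerve, at 89.5% and 89%. The median difference of the chain genes in acrylamide rats was -0.54 in each comparison. Over all 12 arrays, 56 of the 80 genes tested in every tissue had their 4 nerve signals below all 8 signals of cord and cerebellum, as did 21.8% of probe sets, and 1 had them above, as did 22.3%.

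Markers of neurons and fibroblasts also differed between the tissues. The 8 neuron markers summed to 16233 and 4372 on the acrylamide nerve arrays and 14136 and 5246 on the saline nerve arrays, against 69734 to 73899 in the cord and 51721 to 60489 in the cerebellum, and 0 to 3 of the 8 were at or under 110 in the nerve. The 4 fibroblast markers summed to 69910 to 84207 in the nerve, against 13038 to 21608 in the cord and 1685 to 2544 in the cerebellum. The part of cell composition in the lower chain signals was not tested. Without replicate 1 of both nerve groups, which carried the cerebellar markers, the median against the cerebellum was -0.46.

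Ndufa4l2 was the chain gene whose signal was above cord and cerebellum on all nerve arrays. It encodes a relative of Ndufa4 that is known to be induced by hypoxia and to lower complex I activity. Its signals were 481 and 575 on the acrylamide nerve arrays and 514.5 and 393.5 on the saline nerve arrays, against 125 and 226.5 (acrylamide) and 191.0 and 130.5 (saline) in the cord. The cerebellum had 176.0 and 156.5 with acrylamide and 205 and 170.4 with saline. All 4 nerve signals were above the other 8. In saline rats the nerve exceeded the cord by 1.42 ± 0.27 (adjusted p = 0.00177) and the cerebellum by 1.20 ± 0.27 (0.00328).

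Ndufa4, its paralog, ran the other way. It had 3723 and 3065 on the acrylamide nerve arrays and 3983 and 3115 on the saline ones, against 6772 to 7110 over the 4 cord arrays and 8659 to 9441 over the 4 cerebellar arrays. Its nerve minus cord difference in saline rats was -0.99 ± 0.12 (adjusted p = 0.000124).

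Atp5f1e, the epsilon subunit of the ATP synthase stalk, was the other gene called higher in the saline nerve than in the saline cord. It had 6632 and 7209 in the saline nerve, against 5441 and 5508 in the cord (0.34 ± 0.06, adjusted p = 0.0018). In acrylamide rats the nerve had 5564 and 5731.5, against 5349 and 5237 in the cord, a difference of 0.09 that did not pass (adjusted p = 0.24). Both acrylamide nerve signals were also above all 4 cord signals, so the call, and not the order of the arrays, depended on the saline rats.

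Complex IV contains pairs of isoforms, 1 found in most tissues and 1 known from heart and skeletal muscle. The general isoforms followed the rest of the chain: the nerve minus cord difference was -0.65 ± 0.06 for Cox6a1, -0.47 ± 0.08 for Cox8a, -0.48 ± 0.07 for Cox4i1 and -0.64 ± 0.11 for Cox6b1. Their counterparts Cox4i2, known from lung, and Cox6b2, known from testis, lay under the filter in every tissue, as did Cox7b2 and Cox8b, and were not tested.

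Cox6a2, the muscle isoform, had 7.8 and 222 on the acrylamide nerve arrays and 51.8 and 3.0 on the saline nerve arrays. The cord had 237 and 173 with acrylamide and 602 and 179 with saline. The highest cord signal was on saline replicate 1 and the highest nerve signal on acrylamide replicate 2. These are the 2 arrays with the most Acta1, the actin of skeletal muscle, at 13974 and 7532. Cox8b, also of muscle, was highest on the same arrays, at 288 in the cord and 195 in the nerve, and lay at or under 58.2 on the other 10.

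The fitted nerve minus cord difference of Cox6a2 in saline rats, -3.27 ± 0.99, passed the threshold (adjusted p = 0.0188) from nerve signals that were both under 110. Without cord saline replicate 1 it was -2.44 and did not pass (adjusted p = 0.131), nor did it without nerve saline replicate 2 (-2.35, 0.12) or in acrylamide rats (-1.54, 0.21). The cord kept signals of 173 to 237 on its other 3 arrays, on which Acta1 lay between 208.5 and 375.5.

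Cox7a1, the muscle isoform of another subunit, did not follow Acta1. It had 175 and 321 on the acrylamide nerve arrays and 174 and 341 on the saline nerve arrays, higher on replicate 2 in both groups, although Acta1 was at 519 and 7532 with acrylamide and at 1692 and 202 with saline. The cord had 256 and 229 with acrylamide and 280 and 235 with saline, and the cerebellum 146 and 125 with acrylamide and 149.5 and 101 with saline. The nerve arrays overlapped those of the cord and lay above those of the cerebellum. In saline rats Cox7a1 was higher in the nerve than in the cerebellum by 0.90 ± 0.34 (adjusted p = 0.0385) and higher in the cord than in the cerebellum by 0.97 ± 0.34 (adjusted p = 0.038). The first call was lost without nerve saline replicate 2 (0.45, adjusted p = 0.275) or cerebellum saline replicate 2 (0.65, 0.203), and in acrylamide rats (0.75, 0.0775). The second was lost without either cord array (0.154 and 0.0835) or cerebellum saline replicate 2 (0.201), and in acrylamide rats (0.0845).

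**Figure D4:**
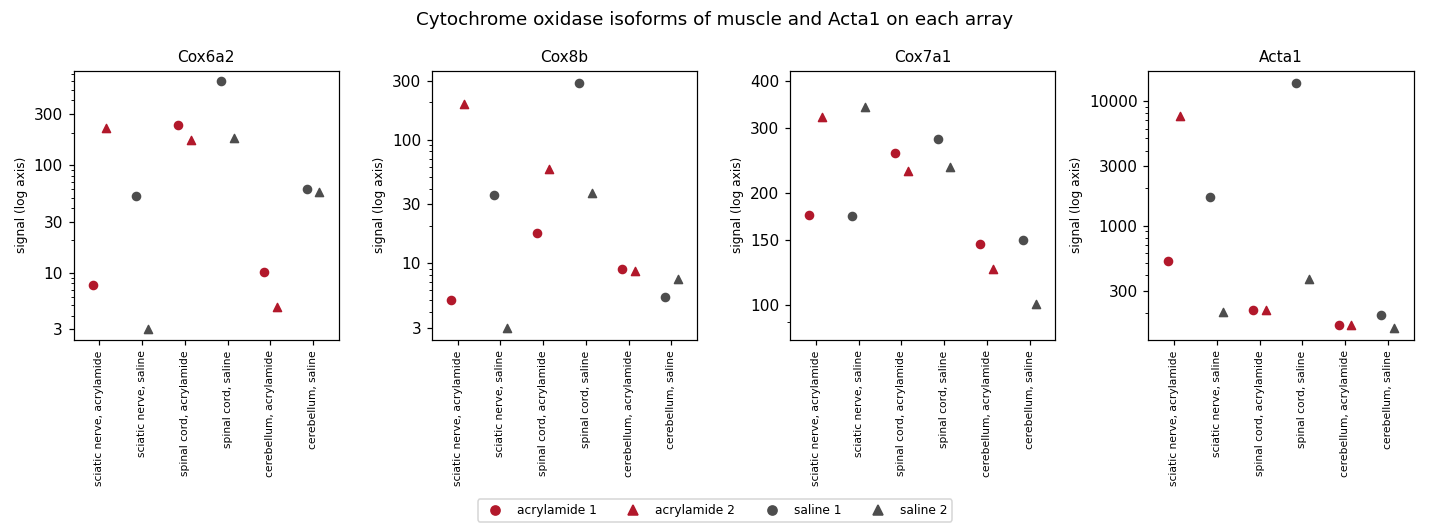
Signal (log axis) of the muscle isoform genes Cox6a2, Cox8b and Cox7a1 and of the muscle actin gene Acta1 on each array, acrylamide in red and saline in grey, with circles for replicate 1 and triangles for replicate 2. Cox6a2 and Cox8b peak on cord saline replicate 1 at 602 and 288, where Acta1 is at 13974, and Cox7a1 does not.

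Fewer chain genes differed between the 2 central nervous system tissues. Of 82 tested genes, 22 were higher and 7 lower in the saline cord than in the saline cerebellum, against 26% and 27.1% of all probe sets, and 0 differed by at least 2-fold and passed the test (12% and 9.54% of all probe sets). The median log2 difference (cord minus cerebellum) was 0.06 for chain genes and -0.06 for all probe sets. The share of chain genes called higher (26.8%) was near that of all probe sets, and the share called lower (8.54%) was under it. The calls higher in the cord included 10 of the 34 complex I genes and 2 of the 4 complex II genes. Of the 7 lower ones, 4 belonged to the ATP synthase, which had 16 genes tested. The complex I and ATP synthase counts were also near the shares of all probe sets. The total of 29 calls was 17 without cord saline replicate 1, 16 without cord saline replicate 2, 16 without cerebellum saline replicate 2 and 20 without cerebellum saline replicate 1.

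Ndufa5, a complex I subunit, had 1443 and 1382 in the saline cord, against 840 and 944 in the saline cerebellum (0.66 ± 0.11, adjusted p = 0.00086). Atp5if1, the inhibitor, had 3496 and 3604, against 2342.5 and 2565 (0.53 ± 0.07, adjusted p = 0.00029). The groups did not overlap for either gene. Ndufv2, Ndufb7 and Ndufb8 were also higher in the cord, by 0.58, 0.50 and 0.70.

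Of the 16 ATP synthase genes, 3 were higher and 4 lower in the cord (median 0.05). Atp5f1a had 7826 and 6964 in the saline cord, against 9235 and 9552 in the saline cerebellum (-0.35 ± 0.09, adjusted p = 0.0108). Atp5f1b differed by -0.24 ± 0.08 and Atp5mg, a membrane subunit gene, by -0.39 ± 0.10, while Atp5pf, a peripheral stalk gene, was higher in the cord (0.22 ± 0.07). Without cord saline replicate 2 the calls of Atp5f1a and Atp5mg were lost (-0.26, adjusted p = 0.0877, and -0.31, 0.0665). In acrylamide rats 16 of the 22 higher and 7 of the 7 lower calls were made again in the same fit. Over all probe sets, 88.1% of the higher and 85.5% of the lower calls were. Over the 12 arrays, 23 of 80 genes had all 4 cord signals above those of nerve and cerebellum, against 10.3% of probe sets, and 16 had all 4 cerebellar signals above the rest, against 24.2%.

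Genes with several probe sets mostly gave 1 direction in the nerve comparisons, with exceptions. The dimmer probe sets of Ndufa9, Ndufaf7, Sdhd and Uqcrc2 were also lower in the nerve. That of Atp5me, with a mean signal of 111.5, was lower in the nerve than in the cerebellum (-0.7) and was not tested against the cord. For cord minus cerebellum it gave -1.06 (limma adjusted p = 0.000977), where the probe set used gave 0.07. For Ndufa7 the probe set used differed by 0.21 from the cord and did not pass, while the dimmer one differed by -1.20 (adjusted p = 0.000229). For Ndufv3 the probe set used was lower than the cerebellum by 0.92 on the log2 scale (-0.92) and the dimmer one higher (0.84, adjusted p = 0.00643). The Cox5a probe set was dim, at 180.4 to 197 in the saline nerve and 394 to 448 in the saline cord, and a second Cox5a probe set, which listed a further symbol, was not used.

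The stretches around the transcription start are shown for 3 genes. They are Atp5me, among the lowest in the nerve, Sdha, the catalytic subunit of complex II, and Ndufa4l2, higher in the nerve on all arrays. Whether promoter sequence has a part in the tissue differences was not tested. Sequences are from RefSeq (GRCr8), plus strand, 250 bases before to 30 bases after the start, at chr14:1464610-1464889, chr1:30764303-30764582 and chr7:65241919-65242198. Capitals mark matches, on either strand, to the binding motifs of nuclear respiratory factor 1 (GCGC, any 2 bases, GCGC), ETS factors (CCGGAAG), the estrogen-related receptor (TCAAGGTCA) and YY1 (AAGATGGC).
Atp5me: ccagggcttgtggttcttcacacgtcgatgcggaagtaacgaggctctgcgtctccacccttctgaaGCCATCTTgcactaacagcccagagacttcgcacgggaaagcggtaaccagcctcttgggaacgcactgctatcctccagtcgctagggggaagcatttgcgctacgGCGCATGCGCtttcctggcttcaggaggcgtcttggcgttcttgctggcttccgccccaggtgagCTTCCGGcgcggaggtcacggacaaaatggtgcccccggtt
Sdha: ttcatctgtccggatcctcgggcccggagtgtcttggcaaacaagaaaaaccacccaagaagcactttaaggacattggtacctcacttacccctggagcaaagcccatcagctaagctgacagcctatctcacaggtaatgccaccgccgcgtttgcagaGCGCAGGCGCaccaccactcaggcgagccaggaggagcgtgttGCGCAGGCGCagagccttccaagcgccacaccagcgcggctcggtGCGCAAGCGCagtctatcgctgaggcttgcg
Ndufa4l2: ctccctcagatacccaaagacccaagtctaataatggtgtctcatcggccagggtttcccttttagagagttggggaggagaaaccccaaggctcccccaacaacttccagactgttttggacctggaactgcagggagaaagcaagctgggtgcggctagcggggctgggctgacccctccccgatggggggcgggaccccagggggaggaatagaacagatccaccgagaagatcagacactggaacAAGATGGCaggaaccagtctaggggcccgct

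Nuclear respiratory factor 1 and ETS factors are known regulators of nuclear genes for the chain. Atp5me held 1 match each to the nuclear respiratory factor 1, ETS and YY1 motifs, Sdha held 3 to the nuclear respiratory factor 1 motif, and Ndufa4l2 held 1 to YY1, at its annotated start. Promoters of 300 bases (250 before to 50 after the start) were found for 78 of the 86 genes. Of these, 16 (20.5%) held the nuclear respiratory factor 1 motif, against 11.2% of 11700 promoters of genes on the arrays and 6.15% of all 27457 in the table. The ETS motif was in 22 (28.2%, against 15.1% and 9.22%), YY1 in 17 (21.8%, against 4.72% and 3.44%) and the estrogen-related receptor motif in 2 (2.56%, against 0.214% and 0.412%). No matches to different motifs overlapped.

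Medians were set side by side for genes with and without each of the 3 more frequent motifs. The median nerve minus cord difference was -0.54 over the 16 genes with the nuclear respiratory factor 1 motif and -0.51 over 59 without. It was -0.50 with the ETS motif and -0.54 without, and -0.47 with the YY1 motif and -0.54 without. Against the cerebellum the order of the last 2 was turned, with -0.44 and -0.40 for ETS and -0.47 and -0.41 for YY1, and the nuclear respiratory factor 1 motif gave -0.48 with and -0.41 without. These matches are letters in a window and do not show that a factor was bound.

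Genes that feed or build the chain were read beside it in the same fit. In the saline nerve against the saline cord, where 28.8% of all probe sets were lower and 29.1% higher, 12 of 15 genes of the citric acid cycle and pyruvate dehydrogenase were lower and 1 higher (median -0.36). Idh3a, a subunit of the NAD-dependent isocitrate dehydrogenase, had 1308 and 1212 in the nerve and 3155 and 3160 in the cord (-1.32 ± 0.11, adjusted p = 1.77e-05). Mdh2, mitochondrial malate dehydrogenase, had 2006 and 2215 in the nerve and 4524 and 3983 in the cord.

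Carriers and import genes were read against the same shares. Of 14 nucleotide, phosphate and pore carriers, 11 were lower in the nerve and 0 higher (median -0.52). Vdac1, the main pore of the outer membrane, had 3517 and 3301 in the nerve and 6676 and 6679 in the cord (-0.97 ± 0.06, adjusted p = 5.47e-06). Of 21 import genes 14 were lower and 0 higher (median -0.62), with the import receptor gene Tomm70 at -1.52 ± 0.15. Of 28 assembly factors of complexes III to V, 17 were lower and 0 higher (median -0.39), with Atpaf1, an assembly factor of the ATP synthase, at 493 and 388 in the nerve and 1505 and 1511 in the cord (-1.75 ± 0.12). The 8 electron carriers and feeders were divided, with 3 higher and 2 lower (median 0.06): Cyc1, the cytochrome c1 of complex III, which the naming pattern does not take in, differed by -0.93 ± 0.08, and Sqor, the sulfide:quinone oxidoreductase, by 1.04 (limma adjusted p = 0.000528). Of 6 complex I assembly genes outside the Ndufaf names, 3 were lower and 1 higher (median -0.23).

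Acrylamide was compared with saline within each tissue, which asks whether repeated dosing altered these genes. No chain gene passed an adjusted p of 0.05 in the nerve (0 of 80 tested), the cord (0 of 81) or the cerebellum (0 of 81), in the average over tissues (0 of 80), or in the test for a difference of the effect between tissues (0 of 80). Among all probe sets limma called 0.00553% in the nerve, 0 in the cord, 0 in the cerebellum, 0.0127% in the average and 0 in the difference. At an unadjusted p under 0.05 there were 7 chain genes in the nerve (8.75%, against 5.1% of all probe sets), 6 of them lower (2.37% of all) and 1 higher (2.73%), 0 in the cord (2.87%), 1 in the cerebellum (2.71%), 2 in the average (5.49%) and 2 in the test for a difference (2.33%).

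The median log2 differences (acrylamide minus saline) were small: -0.05 in the nerve, -0.02 in the cord and 0.01 in the cerebellum. In the nerve 61 of 80 genes had a lower mean with acrylamide, 29 of the 34 complex I genes among them, as did 9004 of all 18088 probe sets tested, whose median was 0.00. Both acrylamide signals were below both saline signals for 20 of 80 (13% of all probe sets) and above for 4 (13.3%). In the cord these counts were 7 (15.8%) and 6 (17.7%) of 81, and in the cerebellum 8 (16.6%) and 13 (17.1%) of 81. The median shifted with the arrays paired: it was -0.01 and 0.01 for acrylamide replicate 1 against saline replicates 1 and 2, and -0.10 and -0.07 for acrylamide replicate 2. Acrylamide replicate 2 was the nerve array with the most muscle marker signal. Its cerebellar neuron markers summed to 1969 and its neuron markers to 4372, against 14213 and 16233 on acrylamide replicate 1. The saline nerve replicates differed in the same order, at 11218 and 2063 and at 14136 and 5246. The part of these marker differences in the shift was not tested.

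**Figure D5:**
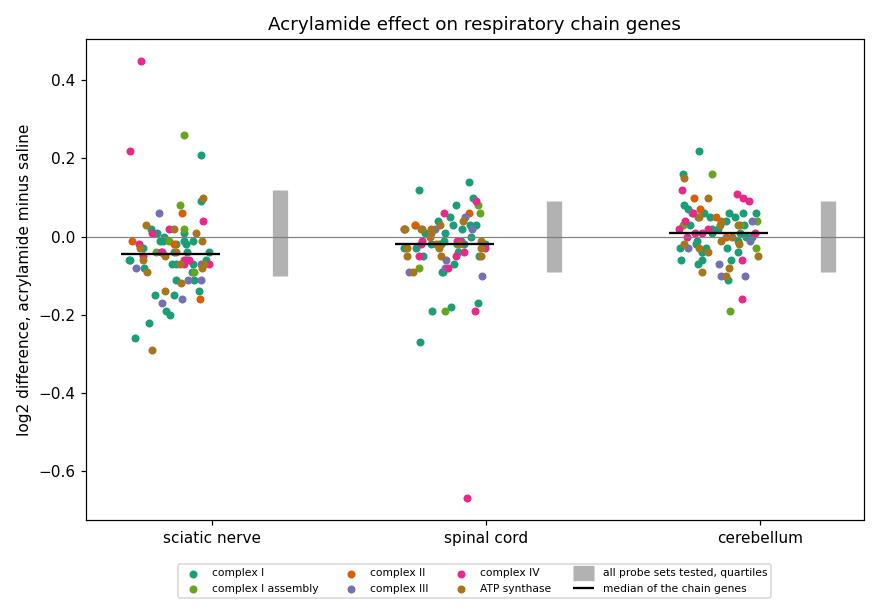
Log2 differences of acrylamide minus saline for each tested chain gene in the 3 tissues, coloured by complex, with the median as a black line and the quartiles of all probe sets as a grey bar. Most points lie between the quartiles of all probe sets, and the point at -0.67 in the cord is Cox6a2.

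Atp5f1e had the smallest p of the chain genes in the nerve. Its signals were 5564 and 5731.5 with acrylamide, against 6632 and 7209 with saline. The groups did not overlap, but the difference of -0.29 ± 0.06 did not pass (limma adjusted p = 0.701). It uses the same saline nerve arrays as the tissue comparisons of this gene. The cord gave -0.05 ± 0.06 and the cerebellum 0.03 ± 0.06, and the test for a difference between tissues gave an adjusted p of 1.

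Cox5a, a subunit near the catalytic core of complex IV, had 268.5 and 259 in the acrylamide nerve, against 197 and 180.4 in the saline nerve (0.45 ± 0.14, adjusted p = 0.909). It was the only chain gene with an unadjusted p under 0.05 and a higher signal in the acrylamide nerve. In the cord it had 413 and 325 with acrylamide, against 448 and 394 with saline, and these overlapped.

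The other 5 nerve genes at an unadjusted p under 0.05 were lower with acrylamide. They were the complex I subunit genes Ndufb3 (-0.20 ± 0.07), Ndufa3 (-0.26 ± 0.11), Ndufb7 (-0.19 ± 0.08) and Ndufa6 (-0.14 ± 0.06) and the complex III subunit gene Uqcr11 (-0.17 ± 0.07), with adjusted p between 0.945 and 0.97. The assembly factor gene Ndufaf4 followed at 0.26 (adjusted p = 0.97). Ndufb3 had 3495 and 3430 with acrylamide, against 3942 and 4007 with saline. Ndufa3 had 2070.3 and 1626.5, against 2209.8 and 2181.6, so most of its difference lay on acrylamide replicate 2.

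In the cerebellum Ndufb11, a complex I subunit, had 5172.5 and 5794 with acrylamide, against 4863 and 4542 with saline (0.22 ± 0.09, limma adjusted p = 1). Atp5if1, the ATP synthase inhibitor, had 2726 and 2720.4, against 2342.5 and 2565 (0.15 ± 0.07, adjusted p = 1). In the cord the smallest p was that of Ndufa5, with 1150.0 and 1324.5 against 1443 and 1382 (-0.19 ± 0.11, adjusted p = 1). Cox6a2 in the cord differed by -0.67, with its highest signal on the saline array rich in muscle markers.

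In the average over the 3 tissues the smallest p belonged to Atp5f1e (-0.10 ± 0.04, adjusted p = 0.8) and the complex III subunit gene Uqcr10 (-0.12 ± 0.05, adjusted p = 0.815). Uqcr10 had both acrylamide signals below both saline signals in all 3 tissues: 3962 and 3991 against 4190.1 and 4739.9 in the nerve, 5604 and 5779.8 against 5983 and 6198 in the cord, and 4463 and 4498 against 5109 and 4519.7 in the cerebellum. Taking the tissues singly, both acrylamide signals were below both saline signals for 13% of all probe sets in the nerve, 15.8% in the cord and 16.6% in the cerebellum. A share for all 3 tissues at once is not given, and Uqcr10 was picked by its small p in the average. Its cerebellar groups were separated only narrowly, by 4498 against 4519.7. None of the genes on the other mitochondrial lists passed the test for acrylamide in any tissue.

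These genes were measured with little spread. The median standard error of an acrylamide difference was 0.09, against 0.16 over all probe sets, and the median 95% confidence interval extended 0.20 to each side. The interval lay within 0.5 log2 units of 0 for 74 of 80 genes in the nerve, 73 of 81 in the cord and 76 of 81 in the cerebellum, and for 80 of 80 in the average.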

How the data were processed

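RNA of 3 tissues was hybridised to 12 one-colour Affymetrix rat arrays in 6 groups of 2. The authors deposited intensity values on a linear scale. Per the submitters' processing notes, GCOS 1.1 produced them. How GCOS computed signals, corrected background and scaled arrays is not given in the sources used. The mean of each array, trimmed by 2% at each end, was 500.1 or 500.2, so arrays had been scaled as a whole. The number of arrays limits the precision.

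Symbols came from the platform annotation. Probe sets with 1 symbol numbered 20832, with several 436 and with none 9831, and 57 control probe sets were left out. Values were analysed as log2(signal + 16), which understates differences of dim genes. A probe set was tested where its mean in a tissue compared exceeded the 40th percentile of signal (110). A limma 3.58.1 model in R 4.3.3 (lmFit, eBayes with trend, 21347 probe sets, 6 residual and 3.14 prior degrees of freedom) held 1 mean per group. Two-sided p-values were adjusted (Benjamini-Hochberg) within a contrast over all probe sets tested, at 0.05. The fit was tested on simulated data. Figures used Python 3.11.15 and matplotlib 3.10.9.

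The members and lists were chosen with earlier results of these data known. Genes were named by rule: isoform pairs and core subunits by role, the 8 largest called differences in each direction between tissues, the 8 smallest p in each acrylamide comparison, the 6 smallest in the average, and the 3 smallest per other list. Genes outside it (such as second probe sets and some examples) were chosen after their values were seen.

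Results were recomputed after quantile normalization or median centring, with pseudocounts of 1 or 64, without the filter or the trend, and with replicate blocks, single-tissue fits, acrylamide arrays in tissue contrasts, the mean over a gene's probe sets, no muscle isoforms, or 1 array left out. The fit without both nerve replicates 1 was chosen after seeing the data. Deviations of same-numbered arrays correlated at 0.43 in the nerve, -0.07 in the cord and 0.06 in the cerebellum.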

Additional observations from a re-analysis of the deposited data

How the results depend on the processing

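No chain gene was called for acrylamide under any alternative or with any array left out. In the nerve the number of probe sets called for acrylamide was 1, and it was 2 with quantile normalization, a pseudocount of 64 or no filter, 0 with the replicate block within tissue, 0 with the 4 nerve arrays alone, and 0 to 24 with 1 array left out (24 without saline replicate 1, 15 without saline replicate 2). In the average it was 2, and 4 with quantile normalization, 1 without a trend, 6 with the replicate block and 0 to 35 with 1 array left out (35 without nerve saline replicate 1). In the cerebellum it was 2 with its 4 arrays alone and 0 to 2 with 1 array left out, in the cord 0 to 1, and for the difference between tissues 0 to 1. The median acrylamide difference of the chain genes with 1 array left out was -0.00 to 0.03 in the cerebellum and -0.03 to 0.01 in the cord, and in the nerve it was -0.10 with median centring. The deviations of same-numbered arrays correlated at 0.43 in the nerve but at -0.07 in the cord and 0.06 in the cerebellum, and the labels tie no rats to the numbers, so the replicate block was not used as the main design.

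The chain median for nerve minus cord was -0.62 with quantile normalization, -0.35 with median centring and -0.50 with the mean over a gene's probe sets. For nerve minus cerebellum it was -0.57 with quantile normalization, -0.22 with median centring, -0.45 with a pseudocount of 1, -0.54 in acrylamide arrays, -0.49 over both treatments, -0.46 without nerve replicate 1 of both groups and -0.47 to -0.40 with 1 array left out. For cord minus cerebellum it was 0.01 with quantile normalization, and 16 to 20 chain genes were called with 1 array left out, against 29. Of single genes named, 1206 comparisons with an alternative kept their call and direction, 75 lost the call and 0 reversed. Genes named in the acrylamide comparisons did not pass the threshold in the main fit, so they had no call to lose there. With 2 arrays per group, the precision rests on the spread pooled over all groups and probe sets.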

Other observations

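Genes of mitochondrial fatty acid oxidation were read in the same fit. In the saline nerve, 9 of 15 genes of this list were higher and 2 lower than in the saline cerebellum (median log2 difference 0.77), and 4 were higher and 2 lower than in the saline cord (median 0.10). Over all probe sets 30.6% were higher and 39% lower than in the cerebellum, and 29.1% higher and 28.8% lower than in the cord, so the counts against the cord were near those shares. Hadh, an enzyme of the beta-oxidation spiral, had 2495.5 and 2945 in the nerve, against 1259 and 1411 in the cord and 513 and 485 in the cerebellum. Its nerve minus cord difference was 1.02 ± 0.10 (limma adjusted p = 4.28e-05) and its nerve minus cerebellum difference 2.41 ± 0.10 (1.66e-07). Eci1, an enoyl-CoA isomerase of the same pathway, differed by 0.89 ± 0.12 and 1.69 ± 0.12. The 6 fat cell markers summed to 7524 and 10255 on the acrylamide nerve arrays and 29075 and 5019 on the saline nerve arrays, against 148 to 251 on all cord and cerebellum arrays, and their part in these differences was not tested.

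Of 14 regulators of mitochondrial biogenesis, 5 were higher and 3 lower in the saline nerve than in the saline cord, near the shares of all probe sets (29.1% and 28.8%). Ppargc1a, a coactivator of mitochondrial genes, had 248.5 and 135 in the nerve, against 735 and 656 in the cord (-1.83 ± 0.28, adjusted p = 0.000456). Esrra, the estrogen-related receptor alpha gene, had 132 and 138 in the nerve, against 431 and 399 in the cord (-1.51 ± 0.13, adjusted p = 2e-05). Tfb1m, a methyltransferase of mitochondrial ribosomal RNA, was higher, with 1414 and 1976 in the nerve and 462 and 620.3 in the cord (1.61 ± 0.19, adjusted p = 9.33e-05). Of 73 mitochondrial ribosome genes, 36 were lower and 7 higher in the nerve than in the cord (median -0.30), against 28.8% and 29.1% of all probe sets, and Mrpl51 was among the higher (0.67 ± 0.08).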
